A study of Mus musculus with 9 samples.

Results

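The genes described are 10 genes of glucocorticoid activation and response, picked by name from the 49548 genes measured in cultured mouse synovial fibroblasts (SFs). They are the activating enzyme Hsd11b1, the receptor genes Nr3c1 and Nr3c2, and 7 genes that glucocorticoids are known to induce, Tsc22d3, Fkbp5, Per1, Klf9, Sgk1, Dusp1 and Zfp36. SFs came from ankle joints of mice aged 8 weeks on a CBA C57BL/6J background, either WT or hTNFtg, a line that carries a human TNF transgene and develops chronic polyarthritis. CD45+ cells were depleted from the cultures at passage 1. Libraries of 3′ mRNA were sequenced from 3 WT cultures, 3 untreated hTNFtg cultures and 3 hTNFtg cultures treated with infliximab, an antibody that neutralizes human TNF, at 1 μg/mL for 48 hours. In the labels, WT and untreated hTNFtg cultures have no treatment, but vehicle over the same time is described in the methods. The sources used here do not say how many mice went into each culture.

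Active glucocorticoid reaches fibroblasts from the circulation and is also regenerated inside the cell by 11β-hydroxysteroid dehydrogenase type 1, the product of Hsd11b1, from the inert 11-keto steroid. The hormone binds the glucocorticoid receptor (Nr3c1) or the mineralocorticoid receptor (Nr3c2), which leave their chaperones, enter the nucleus and switch genes on at glucocorticoid response elements, while many inflammatory genes are held down. Several of the induced genes are themselves brakes on inflammation, and some are also induced by cytokines without any steroid.

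All levels below are normalized counts, that is, reads on a gene after the authors' scaling of each library by 1 factor. In 3′ sequencing a transcript is read near its end, so that the count of a gene does not grow with its length. By the estimate described in the methods, 8 libraries held 3829171 to 9015557 reads on genes, and hTNFtg replicate 1 held 613343. In that library 1 read was worth 6.23 normalized counts, compared with 0.534 to 1.1 in the others, and 3 reads, taken here as the floor, stood at 18.7 normalized counts. Spearman's rho across genes (which are no independent replicates) for pairs of libraries ranged from 0.931 to 0.964 within WT, 0.781 to 0.914 within hTNFtg and 0.948 to 0.967 with infliximab. The 12 fibroblast markers summed to 36553 to 53550 in every library, while the 8 macrophage markers summed to 174 to 634 in WT, 2996 to 6096 in hTNFtg and 1947 to 3994 with infliximab, and 7 of them in hTNFtg and 6 with infliximab lay above every WT library in all libraries of the group. The 4 chondrocyte markers summed to 4454 to 7406 in WT, 374 to 937 in hTNFtg and 622 to 1988 with infliximab. The 5 osteoclast markers summed to 156 to 335 in WT, 318 to 438 in hTNFtg and 266 to 654 with infliximab, where 1 of them in hTNFtg and 3 with infliximab lay above every WT library. The 4 adipocyte markers summed to 367 to 445, 67 to 442 and 125 to 218 in the same order. Sums were 2 to 5, 3 to 6 and 1 to 6 for 4 endothelial markers, 15 to 51, 24 to 59 and 13 to 42 for 5 muscle markers and 15 to 26, 9 to 34 and 13 to 509 for 5 hepatocyte markers. Of the defining markers Calcr, Ckm, Adipoq, Cfd, Ttr, Fgb and Col9a1 were at 0 in all libraries of at least 1 group. The part of these other cell types in the results below was not tested. In bulk RNA, fewer cells of a type and less RNA per cell cannot be told apart.

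Genes were called raised or lowered by the rule of the study, an unadjusted P under 0.05 in limma together with at least a 2-fold change (1 on the log2 scale), and Benjamini-Hochberg adjusted p-values over all genes tested are given beside it. When hTNFtg SFs were compared with WT SFs, 2 of the 10 genes were raised, Dusp1 and Fkbp5, and 0 were lowered, while 3.35% of all genes tested were raised and 3.04% lowered. None of the 10 had an adjusted p under 0.05 in limma (1 in edgeR on approximate reads), a threshold that 0.480% of all genes passed. An unadjusted P under 0.05 was found for 3 of the 10 and for 2201 of all 28522 genes tested. In infliximab-treated versus untreated hTNFtg SFs, 0 of the 10 were raised and 0 lowered, and 0 had an unadjusted P under 0.05 in limma or an adjusted p under 0.05 in edgeR. Of all genes, 1.49% were raised and 0.936% lowered there, 0.00% passed the adjusted threshold, and 1026 of 28540 had an unadjusted P under 0.05. In infliximab-treated hTNFtg versus WT SFs, 2 of the 9 genes that could be tested were raised, Dusp1 and Klf9, and 0 were lowered, compared with 3.86% and 2.95% of all genes. Again 0 of them passed the adjusted threshold in limma (2 in edgeR), which 0.740% of all genes did. An unadjusted P under 0.05 was found for 5 of the 9 and for 3363 of all 28243 genes tested. The comparisons share libraries, so that a gene's values in them are not independent.

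Levels of the members differed widely. Over the 9 libraries the mean was highest for Sgk1 (277 normalized counts) and then Zfp36 (162), Tsc22d3 (136), Dusp1 (135), Nr3c1 (129), Klf9 (82), Per1 (61.2) and Fkbp5 (42.4). Hsd11b1 (7.11) and Nr3c2 (0.111) lay below a mean of 10. The means of Tsc22d3, Dusp1 and Nr3c1 lay closer together than the libraries of any of these genes did. Sgk1 was above 79.4% and Fkbp5 above 32% of the 13600 genes with a mean of at least 10.

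**Figure D1:**
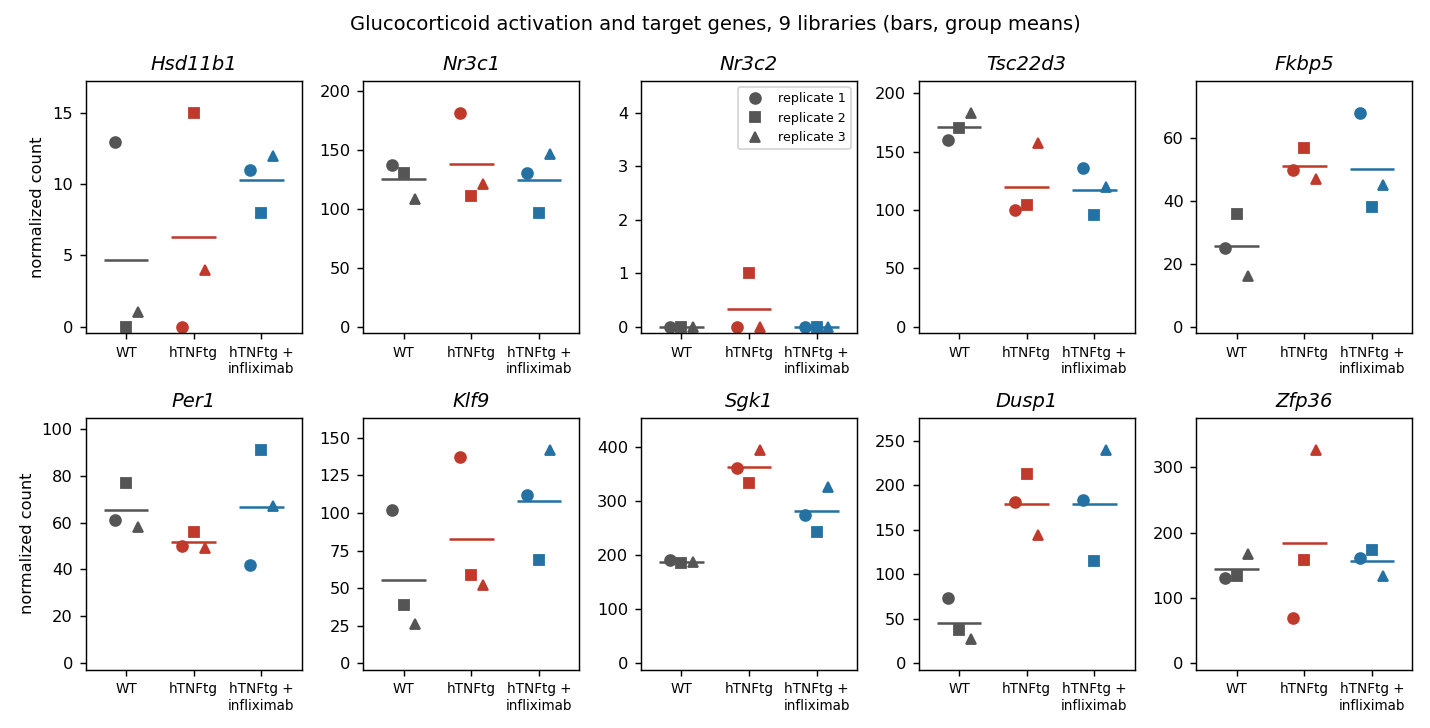
Normalized counts (y axis, from 0 in each panel) of the 10 genes in the 3 WT, 3 hTNFtg and 3 infliximab-treated hTNFtg libraries, with 1 point for each library, shaped by replicate number, and a bar at each group mean. The hTNFtg points of Dusp1, Sgk1 and Fkbp5 all lie above the WT points, those of Tsc22d3 and Per1 all lie below, and Nr3c2 is at 0 in 8 libraries.

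Hsd11b1, which lies on chromosome 1 of mm10 from 193221634 to 193264075 on the minus strand, was close to the limit of detection. Its normalized count was 13, 0 and 1 in WT replicates 1, 2 and 3, then 0, 15 and 4 in untreated hTNFtg SFs and 11, 8 and 12 with infliximab. Within both the WT and the untreated hTNFtg group the libraries spread from 0 to well over 10, whereas the infliximab libraries lay close together and inside the range of the other groups. The 0 in hTNFtg replicate 1 allows up to 23 normalized counts by the exact 95% Poisson interval, which covers counting error only, and this is more than any library showed. Its log2 fold change was 0.50 (standard error 1.23, 95% interval -2.19 to 3.20, adjusted p = 0.899 in limma) for hTNFtg versus WT and 1.38 (standard error 1.03, interval -0.85 to 3.60, adjusted p = 0.803) for infliximab-treated versus untreated. In hTNFtg versus WT it ranged from -0.441 to 1.61 when 1 library was left out, and with array quality weights it was 2.4 and passed the rule. A 2-fold difference in either direction was not detectable at this depth. For infliximab-treated hTNFtg versus WT it was 1.88 (standard error 0.91, adjusted p = 0.466 in limma), and without WT replicate 1 it became 2.99 and passed the rule. Lamb3, a laminin gene, overlaps Hsd11b1 on the other strand and had a mean of 6.67 over the 9 libraries. The ratio of Hsd11b1 to Lamb3 ran from 0 to 4.33 over the libraries, so their counts were not shared as a whole. Since the sources used here do not say whether the counting used strand, some reads of this pair may still not be separable.

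The other genes of glucocorticoid supply gave no call either in the fits as reported. Of 9 listed genes 8 could be tested in hTNFtg versus WT, where 0 were raised and 0 lowered, and likewise 0 and 0 of 8 in infliximab-treated versus untreated SFs. Only 3 of the 8 in the first comparison and 4 of the 8 in the second had a mean of at least 10. For the rest a lack of calls says little. The same holds for Hsd11b2, which was above that mean in both comparisons and is taken up below. With array quality weights 1 of the supply genes was called in infliximab-treated versus untreated SFs. H6pd, whose enzyme makes the cofactor that drives the activating direction of the Hsd11b1 product, had a normalized count of 119 ± 12.2 in WT, 118 ± 23.6 in hTNFtg and 105 ± 15.9 with infliximab (SD, n = 3 each). The values of Hsd11b2, the enzyme that inactivates the hormone, could not be read as its own. They were 159, 299 and 291 in WT, 143, 154 and 543 in hTNFtg and 178, 186 and 255 with infliximab, where Atp6v0d1, a proton pump gene that ends 477 bases away on the other strand, had 174, 304 and 292, then 156, 162 and 543, then 188, 194 and 261. The ratio of the 2 genes was 0.914 to 1 in every library, so reads of the pair cannot be told apart. Hsd11b2, H6pd and Atp6v0d1 were singled out after their values were seen. Within 2000 bases of the 10 members, a search for such partners found genes above 0 beside Hsd11b1 and, with 2 normalized counts in 1 library, beside Klf9 (Mir1192).

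Nr3c1, which encodes the glucocorticoid receptor, was present in all libraries at a similar level. Its normalized count was 137, 130 and 108 in WT SFs, 181, 111 and 121 in hTNFtg SFs and 130, 96 and 146 with infliximab. The 3 groups overlapped, and the highest value came from the shallow hTNFtg replicate 1, where it stood for 29 reads and a 95% Poisson interval of 121 to 259. For Nr3c1 the log2 fold change was 0.11 (standard error 0.31, 95% interval -0.58 to 0.80) for hTNFtg versus WT, -0.14 (standard error 0.32, interval -0.82 to 0.55) for infliximab-treated versus untreated and -0.026 (standard error 0.22, interval -0.52 to 0.47) for infliximab-treated hTNFtg versus WT. None of these passed the rule, and the intervals left room for less than a 2-fold change in either direction. Nr3c2, the mineralocorticoid receptor gene, was at 0 in 8 libraries and at 1 normalized count in hTNFtg replicate 2, at or under the floor of every library, so no fold is given.

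Of the 10 listed chaperones and cochaperones that hold the receptor ready for hormone, 0 were raised and 0 lowered in either hTNFtg versus WT or infliximab-treated versus untreated SFs. All 10 had a mean of at least 10 normalized counts. Their median log2 fold change was 0.21 in hTNFtg versus WT and -0.22 with infliximab. The medians of all genes with such a mean were -0.068 and 0.032. Hspa8, a constitutive heat shock protein of the HSP70 family, stood highest of the list in hTNFtg versus WT, with a log2 fold change of 1.02 that did not pass as reported and did pass without WT replicate 1 or hTNFtg replicate 3, with array quality weights and with all 9 libraries in one fit (0.715 to 1.54 over the alternatives). Of the 10 receptor coregulators 0 were called in hTNFtg versus WT.

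Turning to the induced genes, 3 of them were higher in every untreated hTNFtg library than in any WT library, namely Dusp1, Sgk1 and Fkbp5. The same held for 9.42% of all genes with a mean of at least 10. Tsc22d3 and Per1 were lower in every untreated hTNFtg library than in any WT library, as were 9.21% of such genes. The promoter windows of Dusp1, Sgk1 and Fkbp5 are shown so that the letters of a response element near the start site can be compared. The windows are from RefSeq (build GRCm38.p6) and run 5′ to 3′ in the direction of the gene, with 250 bases before the annotated start and 50 after it. Of the 10 genes 9 were matched to a window, and no window was used for Nr3c1. Capitals mark 3 motifs searched on both strands, the half-site of the glucocorticoid receptor (AGAACA, or TGTTCT on the other strand), the palindromic response element made of a pair of half-sites (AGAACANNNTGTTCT, whose half-sites were also counted as such) and the cyclic AMP response element (TGACGTCA). Sgk1 has 6 annotated starts, and the window shown, at chr10:21993640-21993939 on the plus strand, is the one that holds the palindrome. The Dusp1 window is chr17:26508423-26508722 and the Fkbp5 window chr17:28486100-28486399, both on the minus strand.
Sgk1: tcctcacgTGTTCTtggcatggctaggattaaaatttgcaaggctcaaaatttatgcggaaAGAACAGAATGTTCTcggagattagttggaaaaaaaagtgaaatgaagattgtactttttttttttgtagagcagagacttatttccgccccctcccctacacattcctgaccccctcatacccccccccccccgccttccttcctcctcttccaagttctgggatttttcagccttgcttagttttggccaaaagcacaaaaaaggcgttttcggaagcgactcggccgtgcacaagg
Dusp1: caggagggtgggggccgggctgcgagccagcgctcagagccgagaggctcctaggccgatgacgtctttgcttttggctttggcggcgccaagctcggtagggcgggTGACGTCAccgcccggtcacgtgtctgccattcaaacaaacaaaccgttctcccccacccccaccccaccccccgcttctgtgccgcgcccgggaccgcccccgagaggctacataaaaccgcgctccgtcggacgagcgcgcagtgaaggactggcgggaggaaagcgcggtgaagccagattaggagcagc
Fkbp5: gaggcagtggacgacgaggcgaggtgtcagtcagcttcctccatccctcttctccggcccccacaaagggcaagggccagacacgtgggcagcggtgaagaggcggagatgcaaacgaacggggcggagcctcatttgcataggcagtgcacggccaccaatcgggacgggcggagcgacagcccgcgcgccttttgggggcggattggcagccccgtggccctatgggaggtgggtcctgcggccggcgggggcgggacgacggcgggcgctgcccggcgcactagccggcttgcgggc

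The Sgk1 window holds the palindrome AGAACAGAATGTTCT from position -189 to -175 relative to the start, and another half-site from -242 to -237. The palindrome occurs in 3 of the 32851 promoter windows of all genes, or 0.00913%. Half-sites alone occur in 19% of windows, and beside the one shown they were found in 2 more of the Sgk1 windows and in 1 of the 3 Tsc22d3 windows (chrX:140600473-140600772, minus strand, from -185 to -180). The Dusp1 window holds the cyclic AMP response element from -143 to -136, as do 1.79% of all windows, and no half-site. In the Fkbp5 window none of the 3 motifs occur, which says nothing of sites elsewhere. A match is a description of the sequence, and reads at the 3′ end do not tell which of the Sgk1 starts was used.

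Dusp1, which encodes a phosphatase that switches off p38 and JNK, had the largest difference among the 10 genes in hTNFtg versus WT. It lies on chromosome 17 from 26505590 to 26508519. In WT SFs its normalized count was 73, 37 and 27, followed by 181, 213 and 144 in hTNFtg SFs and 183, 115 and 240 with infliximab. Every hTNFtg library, with or without infliximab, was above every WT library, while the treated and untreated libraries overlapped. The value of hTNFtg replicate 1 rests on 29 reads with an interval of 121 to 259, which lies above the WT libraries. The mean was 179 ± 34.5 in hTNFtg and 45.7 ± 24.2 in WT SFs (SD, n = 3 each), 4.15-fold higher as estimated on the log2 scale. This is a log2 fold change of 2.05 (standard error 0.40, 95% interval 1.17 to 2.94, adjusted p = 0.056 in limma). The call held under each alternative tried, with 1.75 to 2.45 when 1 library was left out, and the adjusted p was under 0.05 with array quality weights (0.00133), with all 9 libraries in one fit (0.0174) and with edgeR on approximate reads (9.36e-05), but rose to 0.13 to 0.485 in limma when 1 library was left out. In infliximab-treated versus untreated SFs the mean was 179 ± 62.6 against 179 ± 34.5, which is -0.045 on the log2 scale (95% interval -0.75 to 0.66, adjusted p = 0.998). Against WT the infliximab-treated SFs were 4.03-fold higher (log2 fold change 2.01, standard error 0.38, adjusted p = 0.0556).

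Sgk1, a kinase that controls ion transport and cell survival, lies on chromosome 10 from 21882184 to 21999903. Counts of Sgk1 were 191, 185 and 187 in WT SFs, 361, 334 and 395 in hTNFtg SFs and 275, 242 and 326 with infliximab. The WT libraries were the closest to each other of any member with a mean of at least 10, and the 3 groups did not overlap, with the infliximab libraries lying between the others. In hTNFtg versus WT the log2 fold change was 0.95 (standard error 0.27, 95% interval 0.36 to 1.53, adjusted p = 0.218 in limma), which stayed just under the fold of the rule, although without hTNFtg replicate 2 it was 1.01 and passed. With infliximab it was -0.38 against untreated SFs (standard error 0.27, interval -0.96 to 0.20, adjusted p = 0.803) and 0.57 against WT (standard error 0.18, interval 0.16 to 0.98, adjusted p = 0.226). Sgk1 was the only member whose treated and untreated hTNFtg libraries did not overlap.

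Fkbp5, a cochaperone that lowers the affinity of the receptor for hormone and is a common readout of glucocorticoid action, lies on chromosome 17 from 28399095 to 28517524. It had 25, 36 and 16 normalized counts in WT SFs, 50, 57 and 47 in hTNFtg SFs and 68, 38 and 45 with infliximab. All hTNFtg libraries and all infliximab libraries lay above the WT libraries, and treated and untreated libraries overlapped. The margin was thin with infliximab, at 38 in the lowest infliximab library and 36 in the highest WT library. The estimate was 1.04 on the log2 scale in hTNFtg versus WT (standard error 0.44, 95% interval 0.07 to 2.01, adjusted p = 0.594 in limma), -0.066 in infliximab-treated versus untreated (interval -0.89 to 0.76, adjusted p = 0.988) and 0.97 in infliximab-treated hTNFtg versus WT (standard error 0.37, adjusted p = 0.321). The call in hTNFtg versus WT was at the edge of the rule. It was lost with a pseudocount of 5 (log2 fold change 0.926), without WT replicate 1 (1.06, for its P), without WT replicate 3 (0.75) and without hTNFtg replicate 2 (0.963), and the value of hTNFtg replicate 1 rests on 8 reads with an interval of 21.5 to 98.2.

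Tsc22d3, which encodes GILZ, a mediator of the anti-inflammatory action of glucocorticoids, differed in the other direction. It lies on chromosome X from 140539528 to 140600659. The counts were 160, 170 and 183 in WT SFs, 100, 104 and 157 in hTNFtg SFs and 136, 96 and 120 with infliximab. All hTNFtg libraries, treated or not, were below all WT libraries, by 3 normalized counts for hTNFtg replicate 3. On the log2 scale Tsc22d3 differed by -0.53 in hTNFtg versus WT (standard error 0.30, 95% interval -1.20 to 0.14, adjusted p = 0.726 in limma), -0.02 in infliximab-treated versus untreated (interval -0.70 to 0.66) and -0.55 in infliximab-treated hTNFtg versus WT (standard error 0.20, interval -1.0 to -0.10, adjusted p = 0.293). None of these passed the rule.

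Per1, a gene of the circadian clock, was at 61, 77 and 58 normalized counts in WT SFs, 50, 56 and 49 in hTNFtg SFs and 42, 91 and 67 with infliximab. The untreated hTNFtg libraries lay just below the WT libraries, and the infliximab libraries spanned both. For Per1 the log2 fold change was -0.32 in hTNFtg versus WT (standard error 0.34, 95% interval -1.08 to 0.43) and 0.30 in infliximab-treated versus untreated (standard error 0.38, interval -0.53 to 1.12). Neither passed the rule.

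Klf9, a transcription factor induced early by glucocorticoids, varied widely between WT libraries. The normalized count was 102, 39 and 26 in WT SFs, 137, 59 and 52 in hTNFtg SFs and 112, 69 and 142 with infliximab. Replicate 1 was the highest in both the WT and the untreated group, and all 3 groups overlapped. Its log2 fold change was 0.66 in hTNFtg versus WT (standard error 0.54, 95% interval -0.53 to 1.85) and 0.46 in infliximab-treated versus untreated (standard error 0.42, interval -0.45 to 1.36). In infliximab-treated hTNFtg versus WT it was 1.12 (standard error 0.47, adjusted p = 0.38 in limma), which passed the rule. That call was lost with the replicate number as a block (adjusted p = 0.533), in edgeR for its size (log2 fold change 0.975, adjusted p = 0.0215) and without WT replicate 2 (0.982), without WT replicate 3 (0.699) or without infliximab replicate 1 (1.06), 2 (1.4) or 3 (0.887).

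Zfp36, which encodes tristetraprolin, a protein that speeds the decay of Tnf and other cytokine mRNAs, was at 130, 134 and 168 normalized counts in WT SFs, 69, 158 and 327 in hTNFtg SFs and 161, 173 and 134 with infliximab. The untreated hTNFtg libraries reached both below and above all others, and the lowest of them was the shallow replicate 1 with 11 reads and an interval of 34.2 to 123. For Zfp36 the log2 fold change was 0.10 in hTNFtg versus WT (standard error 0.48, 95% interval -0.95 to 1.14), and leaving out 1 library moved it between -0.449 and 0.665. It was 0.02 in infliximab-treated versus untreated (interval -0.95 to 0.99) and 0.12 in infliximab-treated hTNFtg versus WT (standard error 0.20, interval -0.33 to 0.57).

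Among the 8 members whose mean reached 10, 3 were higher and 2 lower in hTNFtg than in WT SFs without overlap between the groups, where 9.42% of all genes with such a mean were higher and 9.21% lower. In infliximab-treated versus untreated SFs 0 were higher and 1 was lower, with 6.45% and 5.82% of all such genes, and in infliximab-treated hTNFtg versus WT 3 were higher and 1 lower, with 11.3% and 12.0%. The median log2 fold change of these 8 was 0.39 in hTNFtg versus WT (-0.068 over all genes with such a mean), -0.032 in infliximab-treated versus untreated (0.032) and 0.34 in infliximab-treated hTNFtg versus WT (-0.015). Of the 7 induced genes, the estimate in hTNFtg versus WT was above 0 for 5 and below 0 for Tsc22d3 and Per1. The members were chosen with earlier results of these data known, so a difference from all genes carries no independent weight.

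**Figure D2:**
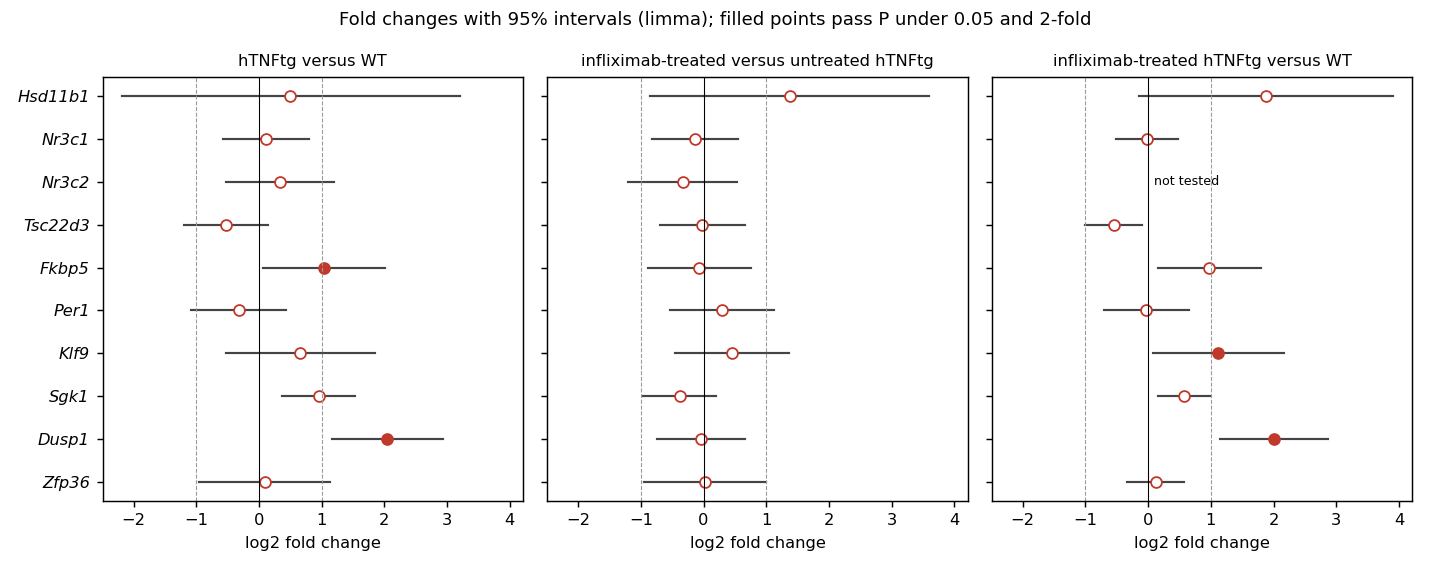
Log2 fold changes (x axis) of the 10 genes in the 3 comparisons, with 95% intervals from limma as lines, dashed lines at a 2-fold change, and points filled where the gene passed the rule. Dusp1 stands at 2.05 in hTNFtg versus WT, at -0.045 in infliximab-treated versus untreated hTNFtg and at 2.01 in infliximab-treated hTNFtg versus WT, and Nr3c2 could not be tested in the last.

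**Figure D3:**
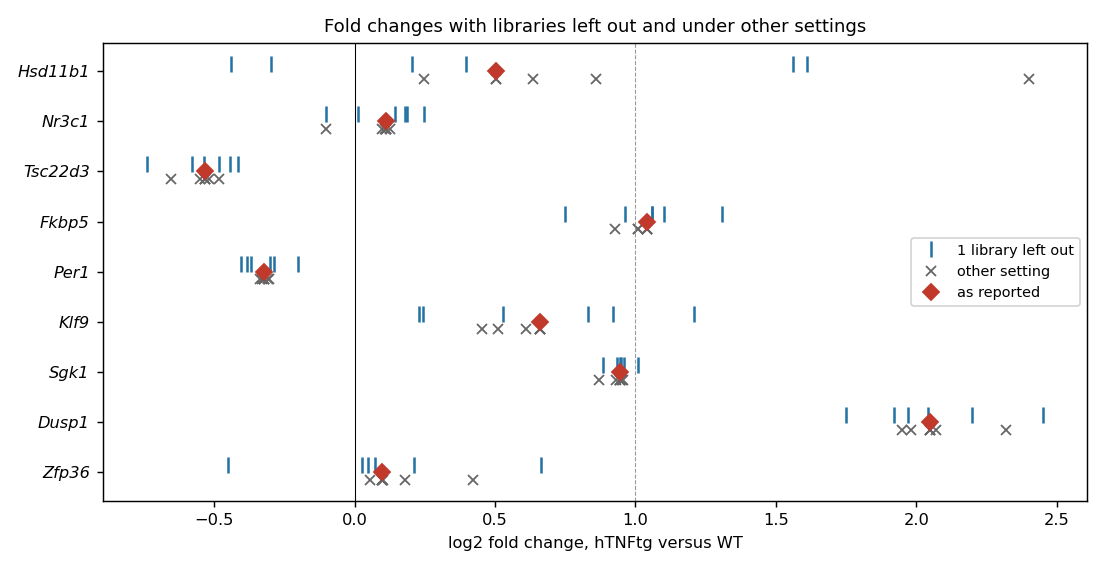
Log2 fold changes in hTNFtg versus WT (x axis) of the 9 members other than Nr3c2 as reported (diamonds), with 1 library left out (blue ticks) and under the other settings (crosses), with a dashed line at 1. Dusp1 stays beyond 1 throughout and Sgk1 close to 1, Fkbp5 falls on both sides of 1, and Hsd11b1, Nr3c1 and Zfp36 fall on both sides of 0.

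All of 27 further genes that glucocorticoids induce in one tissue or another were tested. In hTNFtg versus WT 5 were raised and 1 was lowered, compared with 3.35% and 3.04% of all genes tested. The raised genes were Nfkbia, the inhibitor of NF-κB, Mt1 and Mt2, which encode metallothioneins, Errfi1, a brake on EGF receptor signaling, and Cdkn1a, the cell cycle inhibitor p21. The lowered gene was Cdkn1c, with a mean under 10. Nfkbia had a normalized count of 302, 267 and 319 in WT, 953, 1313 and 1714 in hTNFtg and 708, 600 and 859 with infliximab, so that the 3 groups did not overlap. It was 4.36-fold higher in hTNFtg than in WT SFs (log2 fold change 2.12, standard error 0.31, adjusted p = 0.0148 in limma). Its log2 fold change with infliximab was -0.85 (standard error 0.32, adjusted p = 0.803), under the fold of the rule. Mt1 was 3.32-fold higher in hTNFtg than in WT SFs (adjusted p = 0.037 in limma) and Mt2 5.37-fold (adjusted p = 0.118), with the caution that reads of these similar genes can be split by the counting. Errfi1 was 4.45-fold higher (adjusted p = 0.074 in limma) and Cdkn1a 3.02-fold (adjusted p = 0.106), and these 5 calls held under each alternative but for Cdkn1a with array quality weights (log2 fold change 0.995). The list had 6 genes called in all as reported and 10 without hTNFtg replicate 1. The median of the list was -0.025 (-0.0034 over all genes tested), with 13 of the estimates above 0 and 14 below, from 2.42 for Mt2 to -2.59 for Cdkn1c. With infliximab 1 of the 27 was raised, Ddit4, an inhibitor of mTOR signaling, compared with 1.49% of all genes tested. Ddit4 went from 334 ± 123 to 718 ± 133 normalized counts (SD, n = 3 each), or 1.14 on the log2 scale (standard error 0.32, adjusted p = 0.803 in limma). This call was lost without hTNFtg replicate 1 and with array quality weights (lowest value 0.69), and up to 4 genes of the list were called when 1 library was left out, namely without hTNFtg replicate 2 and without infliximab replicate 3.

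The 18 inflammatory genes that glucocorticoids or ZFP36 are known to hold down showed a different count. Of the 16 that could be tested in hTNFtg versus WT, 10 were raised and 0 lowered, 6 with an adjusted p under 0.05 in limma, and the median log2 fold change was 2.54. With infliximab 0 of 17 were raised and 4 were lowered, the chemokines Ccl20 and Ccl5, the adhesion molecule Icam1 and the matrix metalloproteinase Mmp3, and the median was -0.59. In infliximab-treated hTNFtg versus WT 10 of 17 were raised. Of all genes tested, 3.35% were raised in hTNFtg versus WT, 0.936% lowered with infliximab and 3.86% raised in infliximab-treated hTNFtg versus WT. The list holds known TNF targets, and several of its genes are among those the study followed in these libraries, so its direction is not independent evidence. Set beside Dusp1, with 179 ± 34.5 normalized counts untreated and 179 ± 62.6 treated, Ccl20, which had the largest fall of the list, went from 928 ± 443 to 150 ± 20.5 (SD, n = 3 each), or -2.53 on the log2 scale (standard error 0.33, adjusted p = 0.0992 in limma). Of the 17 estimates of the list 12 were below 0 and 5 above, the latter including Ier3 (0.11) and Cxcl1 (0.30). Whether the response of Dusp1 to infliximab differed from that of such genes was not tested.

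**Figure D4:**
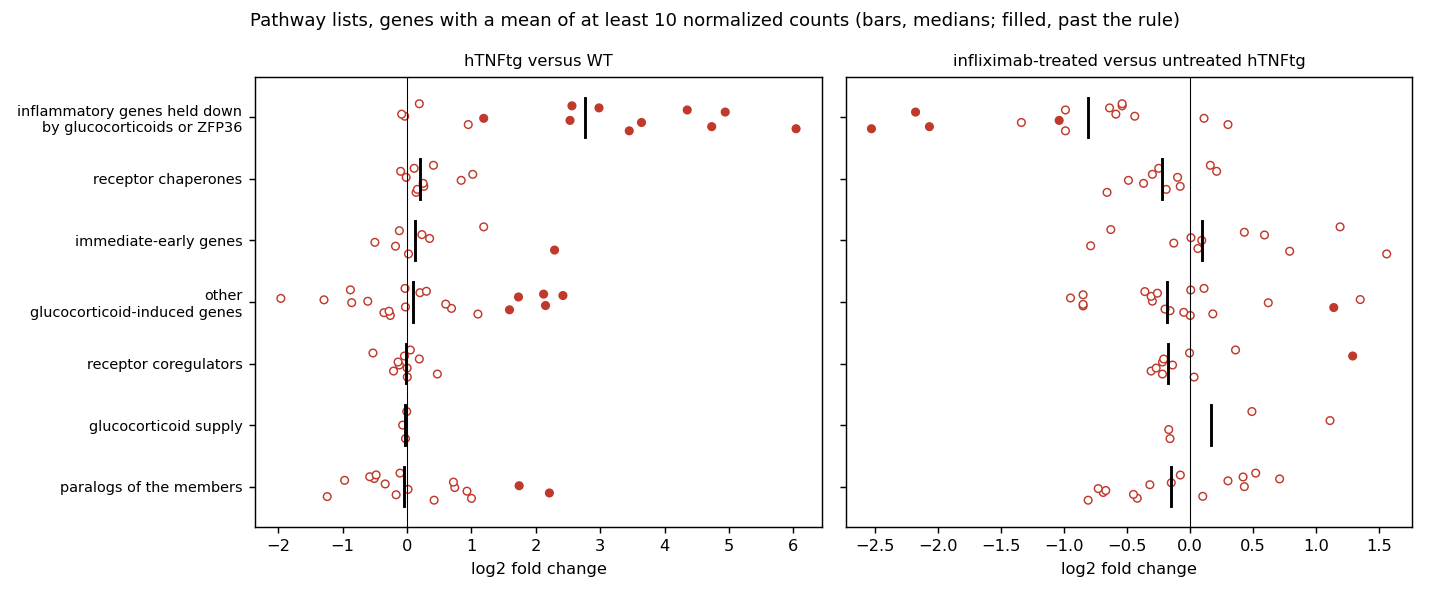
Log2 fold changes (x axis) of the genes of 7 pathway lists whose mean over the libraries compared was at least 10 normalized counts, for hTNFtg versus WT (left) and infliximab-treated versus untreated hTNFtg (right), with filled points past the rule and a bar at each list's median. The inflammatory list has its median at 2.77 on the left and at -0.81 on the right, and the other lists have medians between -0.22 and 0.21.

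Relatives of the members were examined for changes shared within a family. Of 18 paralogs, 3 were raised and 0 lowered in hTNFtg versus WT, and 0 were called with infliximab. Among all genes tested, 3.35% were raised and 3.04% lowered in hTNFtg versus WT, and 1.49% and 0.936% with infliximab. Dusp6, a phosphatase that acts on ERK, had 40, 68 and 61 normalized counts in WT, 131, 291 and 451 in hTNFtg and 189, 151 and 236 with infliximab. All hTNFtg libraries, treated or not, lay above WT, as for Dusp1. It was 4.63-fold higher in hTNFtg than in WT SFs (log2 fold change 2.21, standard error 0.44, adjusted p = 0.0606 in limma) and 3.39-fold higher in infliximab-treated hTNFtg than in WT SFs (adjusted p = 0.0265). In infliximab-treated versus untreated SFs the log2 fold change of Dusp6 was -0.45 (adjusted p = 0.803 in limma). Klf4, a transcription factor of the family of Klf9, was 3.33-fold higher in hTNFtg SFs (adjusted p = 0.376 in limma), a call lost without WT replicate 2 (where 1 paralog was called) and without hTNFtg replicate 1 (where 5 were), and the third raised paralog, Dusp4, had a mean under 10. Of 12 immediate-early genes, which respond within minutes to many stimuli, 1 was raised in hTNFtg versus WT and 0 with infliximab. This was Fos, with 22, 9 and 1 normalized counts in WT, 118, 15 and 27 in hTNFtg and 28, 20 and 16 with infliximab, and its groups overlapped. The call was lost under 7 of 13 alternatives, with a pseudocount of 5, with a mean of at least 10, with array quality weights and without WT replicate 2, WT replicate 3, hTNFtg replicate 1 or hTNFtg replicate 3 (lowest log2 fold change over the alternatives 1.31, 2.29 as reported). The median of this list was 0.038 in hTNFtg versus WT and 0.26 with infliximab.

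The genes most like 3 of the members in their course over the 9 libraries were found by the mean absolute difference of log2 values after centring each gene, among the 8630 or 8631 genes whose mean reached 50. For Nr3c1 they were Btg1 (0.074), Rbms1 (0.084) and Golim4 (0.085), where Nr3c1 itself deviated from its own mean by 0.198. For Tsc22d3 they were Nipbl (0.102), Ski (0.112) and Zfp212 (0.117), against an own deviation of 0.302. For Hsd11b1 the nearest were Rad52 (0.627), Mir1906-1 (0.667) and Meg3 (0.737), against an own deviation of 1.39. Genes as low as Hsd11b1 (mean 7.11) were not among those searched, so how near its closest gene lies cannot be judged from this.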

How the data were processed

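RNA of 9 cultures was measured by 3′ mRNA sequencing (QuantSeq, Ion Proton). Per the methods, the authors mapped reads to mm10 with TopHat2 and then Bowtie2, counted them per gene with GenomicRanges and ran DESeq through metaseqR. Tool versions and the use of strand are not given in the sources used here. What the authors deposited is treated as a score, since it holds read counts that were scaled by 1 factor for each library and then rounded. For hTNFtg replicate 1 the deposited signal is whole reads times 6.23. The design assumed 1 unit for all libraries and was kept, so this library was treated like the others. Values of the untreated hTNFtg libraries are the same in both deposited tables (0 differ) and were used once. A further 24 per-sample columns (log2 and rpgm forms), and columns with the authors' own p-values, FDR, fold changes and group means, were not used.

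Reads were approximated by dividing each value by what 1 read is worth, estimated from gaps in the rounded values. Tested on simulated data, the estimate recovered 18 of 18 values. Groups of 3 libraries were compared with limma 3.58.1 (lmFit, eBayes with trend, R 4.3.3) after adding 1 to each normalized count and taking log2, using 6 libraries and every gene with a value over 0 in any of them. Fold changes are on that scale, which understates those of low genes. P-values measure the spread between cultures, which the methods call biological replicates. On simulated data with 200 of 24696 genes changed 4-fold, the rule found 97% of them and called 458 unchanged genes, and an adjusted p under 0.05 found 62%. The simulation used WT means and 1 set spread for every gene and both groups, not fitted to these libraries. Its shares may therefore be too high for genes that vary more between cultures. Alternatives were a pseudocount of 5, a mean of at least 10, quantile normalization, array quality weights, a block for the replicate number, a single fit of all 9 libraries, edgeR 4.0.16 (quasi-likelihood) on approximate reads, and leaving out each library.

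The 10 members, the 7 pathway lists and the marker lists were chosen with earlier results of these data known. All members are named, and of each pathway list at most 6 genes that passed the rule in hTNFtg versus WT or with infliximab and had a mean of at least 10, by size of change. Other genes named were chosen after their values were seen. Overlaps with other genes were read from GENCODE M21, and promoter windows from RefSeq. The coordinates of Nr3c1 and the values of 1 listed gene are not reported here. Figures were drawn with matplotlib 3.10.9.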

Additional observations from a re-analysis of the deposited data

How the results depend on the processing

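Dusp1 stayed past the rule in hTNFtg versus WT and in infliximab-treated hTNFtg versus WT under each alternative tried. The number of members raised in hTNFtg versus WT was 2 as reported, 1 with a pseudocount of 5, 3 with array quality weights, and 1 to 2 when 1 library was left out. In infliximab-treated hTNFtg versus WT it was 2, with 1 under the replicate block, 1 in edgeR, 3 with array quality weights, and 1 to 3 when 1 library was left out. Members with an adjusted p under 0.05 numbered 0 in each comparison as reported. In hTNFtg versus WT they became 2 with array quality weights (Dusp1 and Sgk1), 1 with all 9 libraries in one fit and 1 in edgeR (both Dusp1). In infliximab-treated hTNFtg versus WT they became 1 with a mean of at least 10, 1 with array quality weights and 2 in edgeR (Dusp1 and Klf9). The cause of these shifts was not tested. Among pathway lists, genes called in hTNFtg versus WT ranged over the alternatives from 5 to 10 for other induced genes, 8 to 11 for inflammatory genes and 1 to 6 for paralogs, and edgeR called 7 inflammatory genes with infliximab versus untreated, where 4 were called as reported. No member was called lowered in any comparison under any alternative, and none was called in infliximab-treated versus untreated SFs.

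Log2 fold changes that changed sign were all uncalled. With array quality weights this held for Nr3c1 (-0.103 in hTNFtg versus WT, 0.0355 with infliximab versus untreated), and with infliximab versus untreated for Hsd11b1 (-0.173), Tsc22d3 (0.087) and Zfp36 (-0.00891). In edgeR it held for Dusp1 (0.0059) and Zfp36 (-0.315) with infliximab versus untreated, and for Per1 (0.0352) in infliximab-treated hTNFtg versus WT. With 1 library left out, the ranges that crossed 0 in hTNFtg versus WT were -0.441 to 1.61 for Hsd11b1, -0.101 to 0.249 for Nr3c1 and -0.449 to 0.665 for Zfp36. In infliximab-treated versus untreated SFs they were -0.275 to 0.0753 for Nr3c1, -0.137 to 0.186 for Tsc22d3, -0.301 to 0.111 for Fkbp5, -0.286 to 0.242 for Dusp1 and -0.549 to 0.565 for Zfp36. In infliximab-treated hTNFtg versus WT they were -0.153 to 0.147 for Nr3c1 and -0.284 to 0.265 for Per1.

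Whether replicate numbers pair the libraries was not settled. Deviations of same-numbered libraries correlated at 0.292, -0.14 and 0.353 in hTNFtg versus WT, at 0.0698, 0.197 and 0.265 in infliximab-treated versus untreated SFs and at 0.102, -0.147 and 0.0125 in infliximab-treated hTNFtg versus WT, and 2, 2 and 1 of 3 libraries correlated best with their own number. Libraries of unlike number correlated at -0.485 to 0.237, -0.256 to 0.126 and -0.174 to 0.216 in the same order. The replicate block kept 2 raised members in hTNFtg versus WT, and Dusp1 then had an adjusted p of 0.478 in limma. Depth limits hTNFtg replicate 1, where 3 reads stand at 18.7 normalized counts, and low counts limit Hsd11b1 and Nr3c2 in all libraries.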

Other observations

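Within the infliximab group, replicate 2 was the lowest library for 6 of the 8 members with a mean of at least 10 (Sgk1, Dusp1, Fkbp5, Nr3c1, Tsc22d3 and Klf9), where it was the lowest for 29.1% of all 13600 genes with such a mean. Within WT, replicate 3 was the lowest for 5 of the 8 (Per1, Dusp1, Fkbp5, Nr3c1 and Klf9) and replicate 1 the highest for 4 (Sgk1, Dusp1, Nr3c1 and Klf9), against 33.5% and 36.8% of all such genes. This order of libraries was looked at after the values were seen and carries no test.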
